A study of Mus musculus with 9 samples.

Results

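The cytosolic ribosomal protein genes were taken as every gene name on the array that joins Rpl or Rps directly to a digit, together with Rplp0, Rplp1, Rplp2 and Rpsa, leaving out pseudogene names and the S6 kinases. The rule found 85 of 36413 gene or region names, of which 52 name large-subunit proteins and 33 small-subunit proteins. Among the 85 are 76 genes for the proteins of the ordinary ribosome, 8 duplicates of such genes (paralogs), and Rps19bp1, which the name pattern brings in although its product binds the small-subunit protein Rps19 and is no part of the ribosome. Of the 85, 82 lay well above background on all 9 arrays and were tested, and the paralogs Rpl3l, Rpl10l and Rpl39l did not pass that filter. The rule used no measured difference between groups.

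RNA was measured on 9 one-colour Agilent arrays, 3 per group, in LSK cells (lineage-marker-negative, Sca1+, cKit+ cells), the bone marrow fraction that holds blood stem cells and early progenitors. All cells were from female mice carrying Gt(ROSA)26Sor CreERT2, a Cre recombinase that works only once tamoxifen is given. The groups were control cells, Drosha fl/fl cells and Dicer fl/fl cells, where fl/fl means that both copies of the gene can be cut out by Cre. Every group, the controls included, was cultured at 50000 cells per well for 72 h in 10% serum, with stem cell factor at 50 ng/mL, the cytokines IL-6 and IL-3, both at 10 ng/mL, and 4OH-tamoxifen at 250 nM, so the Cre, the drug and the culture were shared. The labels give no age and do not say whether the 3 arrays of a group came from separate animals, so p-values measure the spread between these samples, which may be technical. The values of a culture average over its cells, and cells in which Cre did not act cannot be told apart from the others, nor can fewer cells of a type from less RNA per cell.

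Drosha cuts microRNA hairpins out of their primary transcripts in the nucleus, and Dicer, encoded by Dicer1, cuts the hairpins into mature microRNAs in the cytoplasm. The Drosha probe, filed under the older name Rnasen, was at 12.04, 11.88 and 11.85 (log2) in the controls and at 8.81, 8.92 and 9.32 in the Drosha-deleted cells, 7.52-fold lower (limma adjusted p = 0.000153), and at 11.94 to 12.16 in the Dicer-deleted cells. The Dicer1 probe was at 9.92, 10.50 and 10.44 in the controls and at 8.99, 9.18 and 8.97 in the Dicer-deleted cells, a difference of -1.24 that did not pass the threshold (limma adjusted p = 0.118) and did without control replicate 1 (-1.42, adjusted p = 0.00263), a setting under which 30.5% of all genes passed. The Dicer1 spot of control replicate 2 was marked as an outlier by the scanner software. Of 10 listed LSK markers 9 were measured, and Kit, Ly6a, Cd34 and Flt3 lay well above background on all 9 arrays. The monocyte marker Cd14 was lower in the Drosha-deleted cells than in the controls (-1.26, limma adjusted p = 0.0300). The summed level of the 10 monocyte and macrophage markers measured of 11 listed was 15.78 to 16.60 (log2) in the controls, 16.05 to 16.56 in the Drosha-deleted cells and 15.85 to 16.79 in the Dicer-deleted cells, so these ranges overlapped. All 6 megakaryocyte markers were measured, and their summed level was 18.659 to 18.840 in the controls. It was 18.368 to 18.656 in the Drosha-deleted and 18.164 to 18.396 in the Dicer-deleted cells, lower than every control on each deletion array. The ranges of the deletions overlapped each other, and that of the Drosha-deleted cells ended just below the controls. In Dicer-deleted against control cells 5 of these 6 markers were lower at an unadjusted p under 0.05, with a median of -0.69, and the smallest limma adjusted p was 0.133, for Ppbp. In Drosha-deleted against control cells all 6 differences were negative, with a median of -0.17, and 1 had an unadjusted limma p under 0.05. The summed ranges of the other lineages and of the LSK markers overlapped between the groups. Single markers still leaned. In Drosha-deleted against control cells 8 of the 10 monocyte and macrophage markers were negative, with a median of -0.45. At an unadjusted limma p under 0.05, 4 were lower and 1 higher (50%, against 26.9% of all genes). All 9 measured neutrophil markers were positive there, with a median of 0.37 and 0 under that p. Besides Cd14, no gene of the 6 listed mature blood lineages passed the threshold in any of the 3 comparisons. The part of cells of these lineages in the results below was not tested.

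A ribosome is built from ribosomal RNA and one copy of most ribosomal proteins, so the cell makes these proteins in matched amounts, and the genes are among the most strongly transcribed of any growing cell. Their mRNAs open with a run of pyrimidines, the 5′ terminal oligopyrimidine (TOP) tract, through which mTOR and Larp1 switch their translation on and off without a need to change mRNA levels. Blood progenitors are sensitive to the supply, since loss of 1 copy of several of these genes causes Diamond-Blackfan anaemia, a failure of red cell production. MicroRNAs are known to act on the translation of ribosomal protein mRNAs too, and an array reads mRNA amounts only.

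Pyrimidine runs near the annotated start were more frequent in these genes than in all genes, and fewer of the genes had one exactly at it. RefSeq start windows (GRCm38.p6) were found for 56 of the 76 ordinary ribosomal protein genes. Within 20 bases of the annotated start, a pyrimidine run of at least 6 bases opening with C was found in 37 of the 56 (66.1%), against 34.2% of the 27025 genes in the table, where a gene with several listed starts counts if any of them holds the run. A C exactly at the annotated start, followed by at least 4 pyrimidines, was found in 13 of them (23.2%) against 3.01% of all genes. The letters CCGGAAG, on either strand of the 300-base window from 250 bases before to 50 after the start, occurred in 24 (42.9%) against 9.93%, and TATAAA in the 50 bases before the start occurred in 0 against 3.15%. The 9 windows below show 15 bases on each side of an annotated start, with the pyrimidine run in capitals where one was found. They belong to 7 genes whose values are described in detail further on, of which Rps21 and Rpl22 have 2 listed starts each, and they show how the run moves around the start and where it was not found.
Rps6, chr4:86857353-86857382, minus strand: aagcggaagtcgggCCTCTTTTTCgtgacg
Rps18, chr17:33955651-33955680, minus strand: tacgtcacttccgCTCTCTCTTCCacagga
Rps21, chr2:180257364-180257393, plus strand: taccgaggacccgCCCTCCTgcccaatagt
Rps21, chr2:180257434-180257463, plus strand: ggacaagtgagcaggtaggcctcggtgcgg
Rpl28, chr7:4792950-4792979, plus strand: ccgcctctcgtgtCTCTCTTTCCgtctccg
Rpl14, chr9:120571502-120571531, plus strand: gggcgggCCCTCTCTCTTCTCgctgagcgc
Rpl7a, chr2:26910792-26910821, plus strand: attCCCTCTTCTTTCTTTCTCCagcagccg
Rpl22, chr4:152324421-152324450, plus strand: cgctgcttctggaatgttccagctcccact
Rpl22, chr4:152325711-152325740, plus strand: ttcgccctgggaaaagcaatagctggccga
In Rps18, Rpl28 and the first start of Rps21 the run opens 2 bases before the annotated start, in Rps6 1 base before it, and in Rpl14 and Rpl7a 8 and 12 bases before it. In Rpl4, not shown, it opens 17 bases before the start, outside a window of this size. No such run was found near either start of Rpl22 or the second start of Rps21. The genes themselves are scattered, with the 76 ordinary genes on 18 chromosomes and 14 of the 85 on chromosome 7.

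The probes of these genes were bright and steady. In the authors' log2 values the highest value of every array was 18.77, and 76 of the 82 measured genes had a control mean above 16. The 100 brightest tested probes of the array included 26 of these genes. The 6 dimmer ones were Rps4y2, Rpl21, Rpl7l1, Rps19bp1, Rpl36al and Rps21, with control means of 7.40, 9.66, 10.57, 12.52, 15.80 and 15.97. Brightness also depends on the probe, so these levels do not order the genes by abundance. Over the 9 arrays a gene's values spanned 0.243 log2 units in the median, against 0.791 for all 23009 genes and regions tested. The span was under 0.5 for 68 of the 82 (82.9%), against 21.3% of all tested, and over 1 for Rps21 and Rps4y2 alone. Over the 6 deletion arrays the median span was 0.141 against 0.501. No spot of these 82 probes was marked as an outlier and no spot of any array was saturated.

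**Figure D1:**
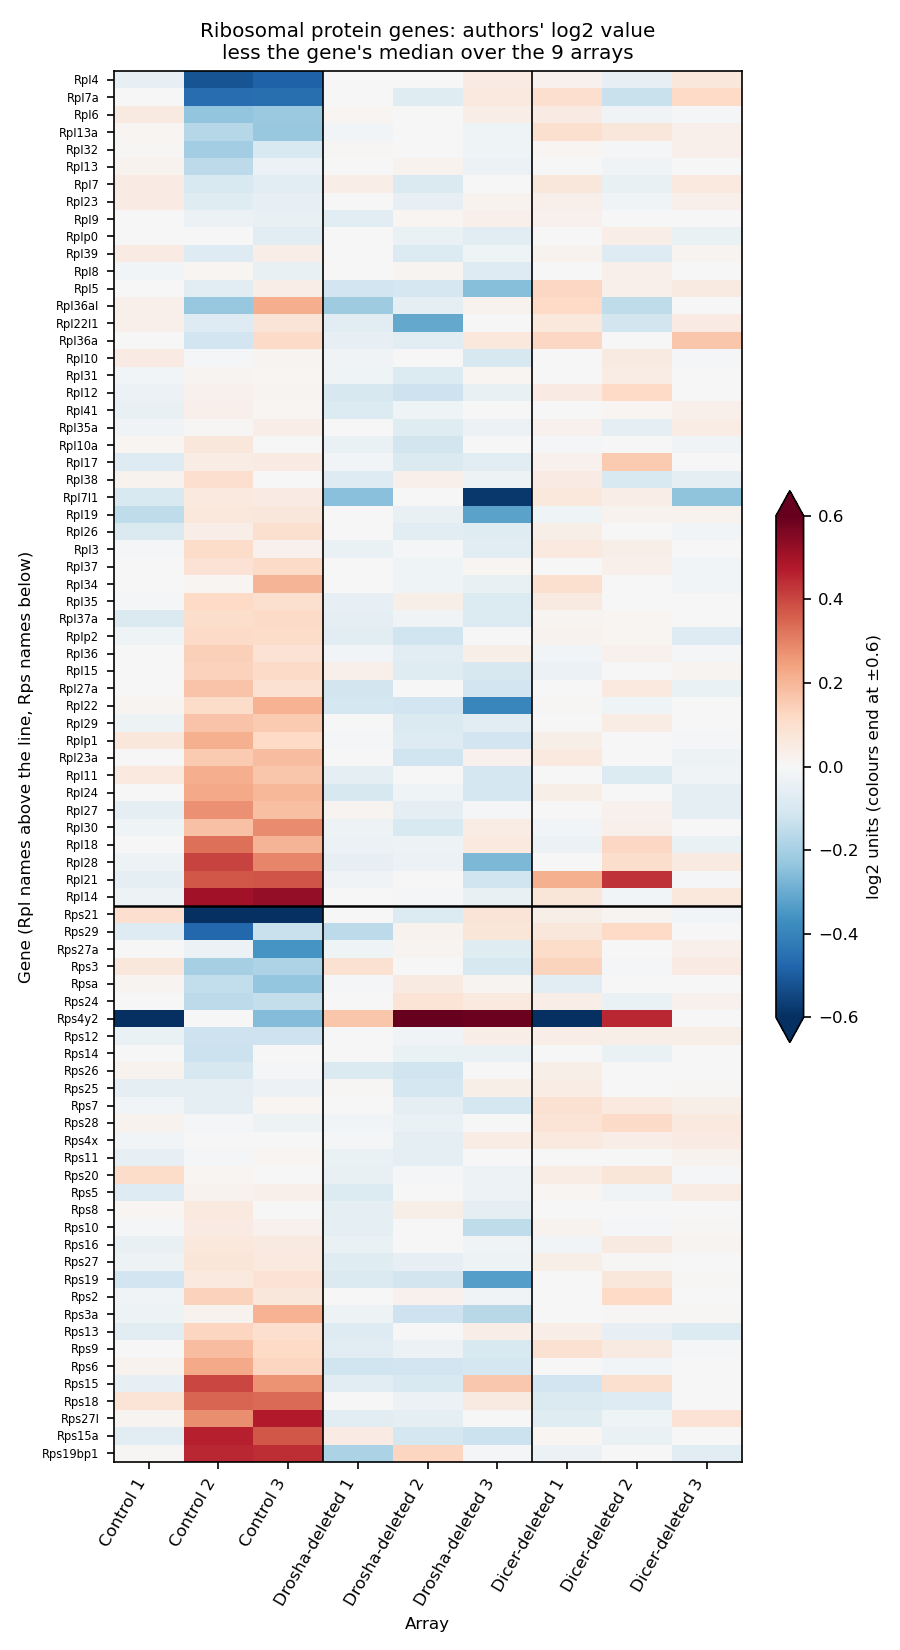
Each row is 1 gene, for 80 of the 82 measured, and each column 1 array; colour gives the authors' log2 value less the gene's median over the 9 arrays, from blue (below) to red (above), with the colours ending at 0.6. Most cells are near white, and the strongest colours lie in control replicates 2 and 3 and in the row of Rps4y2.

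The 1 feature that runs through the map of deviations is in the controls. Control replicates 2 and 3 both lay outside the range of the 6 deletion arrays, on the same side, for 42 of the 82 genes (51.2%), above it for 31 and below it for 11. For 32 of these (39.0% of the 82) control replicate 1 lay inside the range. The same held for 47.5% and 34.9% of all genes tested. The sides differed, with 37.8% of the ribosomal protein genes above the range and 13.4% below it, against 23.8% and 23.7% of all genes. In the scanner files, control replicate 2 had 18.9% of its spots marked as non-uniform, against at most 0.0472% on any other array, and a median signal of 529 against 31.0 to 53.8. Its scanner values correlated with its own column of the authors' values at 0.770 across probes, against 0.974 to 0.985 on the other arrays, so whether that column was made from that scan is not settled, and each control replicate 2 value given here is the column's. Control replicate 3 was the only array on its slide. What sets these 2 columns apart was not tested.

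Each deletion was compared with the controls to ask what loss of the enzyme does to the ribosomal protein mRNAs. None of the 82 genes passed the threshold of adjusted p = 0.05 in Drosha-deleted against control cells, where 0.169% of all genes tested did, in limma's test. None passed in Dicer-deleted against control cells, where 0.0174% of all did, and none in Drosha-deleted against Dicer-deleted cells, where 0.0565% did. The smallest adjusted p among the members was 0.146, for Rpl4, in the first comparison, 0.186, for Rps18, in the second, and 0.907, for Rpl5, in the third. At an unadjusted p under 0.05 there were 7 genes in the first comparison, 3 in the second and 0 in the third, where 26.9%, 21.9% and 5.66% of all genes lay under it. The first 2 comparisons share their control arrays and so are not independent.

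The intervals around these differences were narrow. The median standard error was 0.104 log2 units, against 0.179 for all genes tested. The 95% interval lay wholly within 0.5 log2 units of 0 for 67 of the 82 genes (81.7%) in Drosha-deleted against control cells, for 71 (86.6%) in Dicer-deleted against control cells and for 78 (95.1%) between the deletions, against 27.8%, 29.8% and 40.1% of all genes. It lay within a 2-fold change for 80, 80 and 81 of the 82. The genes beyond that bound were Rps21 and Rps4y2 against the controls, and Rps4y2 alone between the deletions.

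**Figure D2:**
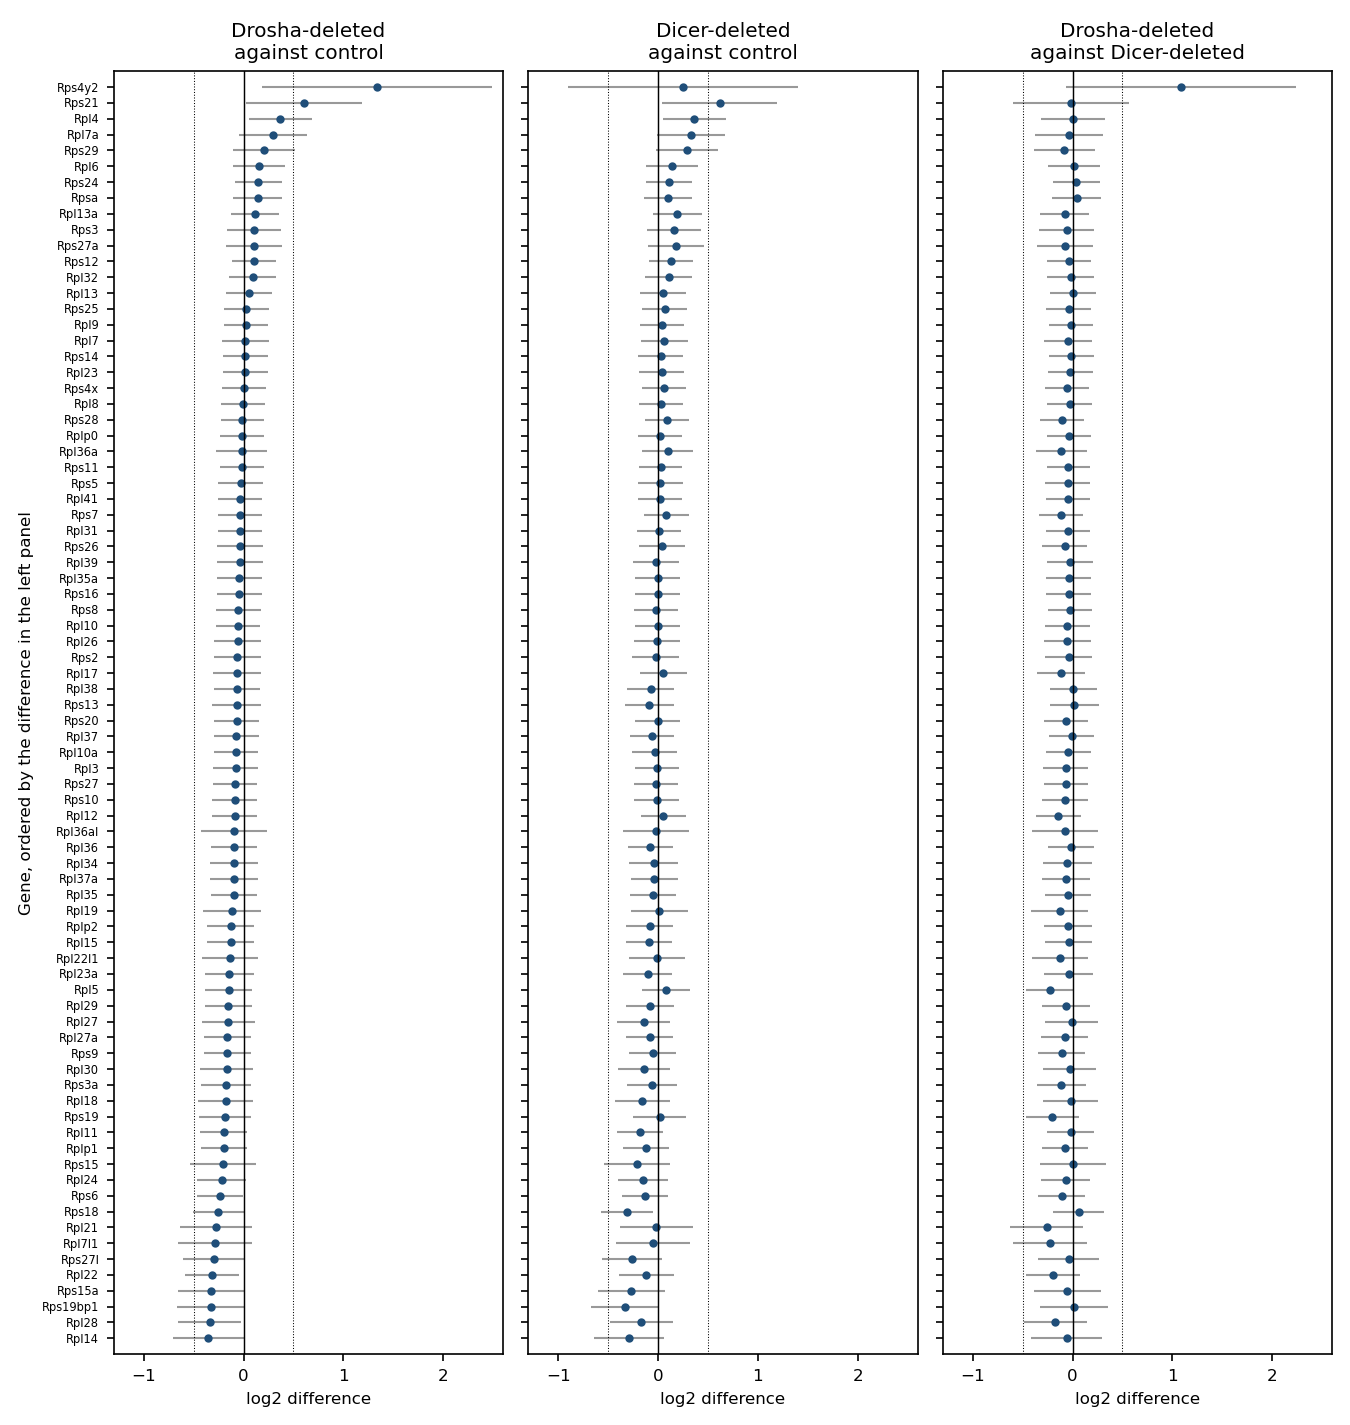
Points give the log2 difference of group means for 80 of the 82 genes and lines the 95% interval from limma, in 3 panels, 1 per comparison; genes are in the same order in each panel, and dotted lines mark 0.5 log2 units either way. In the right panel 76 of the 80 intervals lie between the dotted lines, and Rps4y2 has the widest interval in each panel.

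As a list, the genes sat slightly to the low side in the Drosha-deleted cells. The median difference was -0.07 against controls, with 62 of 82 negative, while the median over all genes was -0.00. It was -0.05 against Dicer-deleted cells, with 71 of 82 negative and a median of 0.00 over all genes. Dicer-deleted against control cells had a median of -0.01 with 46 of 82 negative. Both subunits shared the lean, with medians of -0.08 for 46 large-subunit and -0.04 for 30 small-subunit genes against controls, and of -0.05 each against Dicer-deleted cells. The lean against the controls depends on the values used. In the scanner values of all 9 arrays the median was 0.36, above the 0.28 of all genes. Without the array of control 2 the scanner median was -0.14, below the -0.02 of all genes. With control replicate 1 as the lone control in the authors' values the median was -0.03. The 82 values come from the same arrays and are not independent measurements.

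Between the deletions, all 3 Drosha-deleted arrays lay below all 3 Dicer-deleted arrays for 18 of the 82 genes and above them for 0, where 6.79% of all genes lay wholly below, 8.61% wholly above and 15.4% on either side. Rpl5, Rpl11's partner in the particle that restrains the p53 inhibitor Mdm2, was at 16.51, 16.53 and 16.37 in the Drosha-deleted cells and at 16.75, 16.66 and 16.68 in the Dicer-deleted cells, a difference of -0.23 ± 0.10 (SE). Rps19, the gene most often mutated in Diamond-Blackfan anaemia, was at 17.07, 17.04 and 16.82 against 17.15, 17.22 and 17.16, a difference of -0.20 ± 0.12 (SE). The others of the 18 include Rpl12, Rpl22, Rpl28, Rplp1 and Rps6, and none had an adjusted p below that of Rpl5.

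Against the controls, groups that did not overlap were about as common among these genes as among all genes. In Drosha-deleted cells 4 genes lay wholly above the controls and 16 wholly below, 24.4% in all, where 12.6% of all genes lay above, 10.5% below and 23.2% on either side. In Dicer-deleted cells 10 lay wholly above and 6 wholly below, 19.5% in all, where 11.6%, 9.95% and 21.6% of all genes did.

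Among the large-subunit genes, Rpl4, whose protein reaches into the tunnel through which the new chain leaves, had the smallest p in Drosha-deleted against control cells. It was at 17.39, 16.92 and 16.95 in control replicates 1 to 3, at 17.44, 17.44 and 17.49 in Drosha-deleted cells and at 17.46, 17.39 and 17.50 in Dicer-deleted cells. Only control replicates 2 and 3 stood clear of the rest. The differences were 0.37 ± 0.14 (SE) and 0.36 ± 0.14 (SE), with limma adjusted p of 0.146 and 0.195.

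Rpl7a, another large-subunit protein, followed the same course. Its values were 17.52, 17.06 and 17.07 in the controls, 17.52, 17.45 and 17.58 in Drosha-deleted cells and 17.62, 17.39 and 17.64 in Dicer-deleted cells. Control replicate 1 lay among the deletion arrays, and the differences were 0.30 ± 0.15 (SE) and 0.33 ± 0.15 (SE). The 4 measured Rpl7a probes ranged from -0.18 to 0.48 in Drosha-deleted and from 0.09 to 0.48 in Dicer-deleted against control cells.

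Rpl14 had the opposite sign. It was at 18.13, 18.67 and 18.69 in the controls, at 18.16, 18.15 and 18.12 in Drosha-deleted cells and at 18.24, 18.15 and 18.23 in Dicer-deleted cells. Again control replicate 1 was level with the deletion arrays and the other two were not, which gave differences of -0.35 ± 0.16 (SE) and -0.29 ± 0.16 (SE).

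Rpl28 and Rpl22 differed in that the Drosha-deleted arrays were the lowest of all 9. Rpl28 was at 17.07, 17.51 and 17.39 in the controls, at 17.05, 17.06 and 16.83 in Drosha-deleted cells and at 17.10, 17.20 and 17.16 in Dicer-deleted cells. The Drosha-deleted arrays lay below both other groups without overlap, and control replicate 1 was only just above them. The difference from the controls was -0.34 ± 0.14 (SE, limma adjusted p = 0.164).

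Rpl22, whose protein is dispensable for ribosome assembly and needed in developing T cells, was at 17.12, 17.21 and 17.32 in the controls, at 17.00, 16.99 and 16.71 in Drosha-deleted cells and at 17.12, 17.08 and 17.11 in Dicer-deleted cells. Drosha-deleted replicate 3 was the lowest, and the 3 controls were more alike here than in the genes above. The difference from the controls was -0.32 ± 0.12 (SE, limma adjusted p = 0.146), and with the mean over both Rpl22 probes it was -0.12.

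Among the small-subunit genes, Rps21 had the widest spread of the ordinary ribosomal protein genes. It was at 16.67, 15.59 and 15.64 in the controls, at 16.57, 16.49 and 16.65 in Drosha-deleted cells and at 16.61, 16.59 and 16.56 in Dicer-deleted cells. Control replicates 2 and 3 lay far under every other array, which kept within 16.49 to 16.67. The group differences were 0.60 ± 0.26 (SE) and 0.62 ± 0.26 (SE), with limma adjusted p of 0.175 and 0.211, and -0.01 ± 0.26 (SE) between the deletions.

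Rps18, a protein of the small subunit's head, had the smallest p in Dicer-deleted against control cells. It was at 17.01, 17.27 and 17.26 in the controls, at 16.92, 16.89 and 16.98 in Drosha-deleted cells and at 16.84, 16.85 and 16.92 in Dicer-deleted cells. Every deletion array lay below every control, though control replicate 1 only narrowly so. The differences were -0.25 ± 0.11 (SE) and -0.31 ± 0.11 (SE), with limma adjusted p of 0.192 and 0.186, and with the mean over both Rps18 probes the second was -0.06.

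Rps6, the protein that S6 kinases phosphorylate under mTOR, had closely spaced values within each deletion. It was at 17.96, 18.17 and 18.08 in the controls, at 17.83, 17.83 and 17.84 in Drosha-deleted cells and at 17.95, 17.93 and 17.95 in Dicer-deleted cells. For the chosen probe the groups were in the order Drosha-deleted, Dicer-deleted, control, with no overlap between any pair. Another Rps6 probe had the Dicer-deleted cells above the controls, at 0.15. The Drosha-deleted difference from the controls was -0.24 ± 0.10 (SE, limma adjusted p = 0.181) and that from the Dicer-deleted cells -0.11 ± 0.10 (SE).

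**Figure D3:**
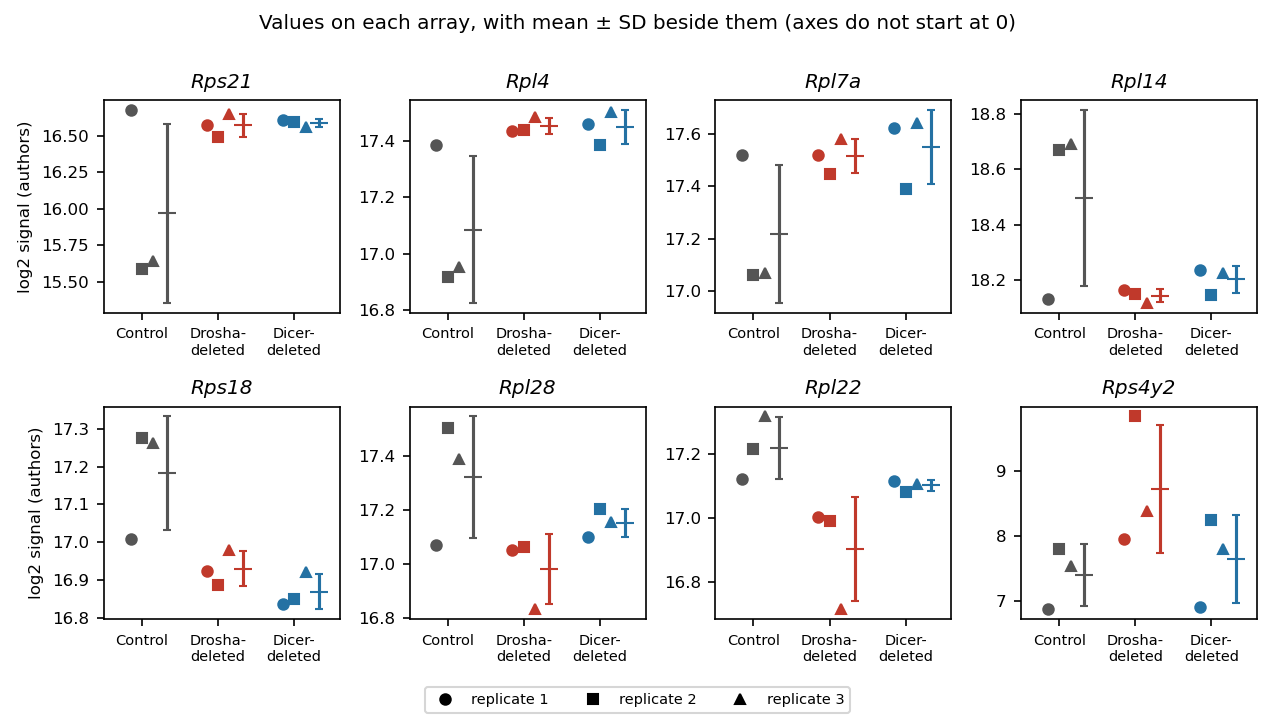
Authors' log2 values of 8 genes on each array, with circles, squares and triangles for replicates 1, 2 and 3 and the mean ± SD (n = 3) beside each group. In Rps21, Rpl4, Rpl7a and Rpl14 control replicate 1 lies level with the 6 deletion arrays while control replicates 2 and 3 lie away from them, and in Rpl22 and Rpl28 the Drosha-deleted arrays are the lowest.

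The share of control replicates 2 and 3 in these differences was measured by leaving arrays out. Without control replicate 1, limma called 13 of the 82 genes in Drosha-deleted against control cells (15.9%, where 33.6% of all genes were called) and 8 in Dicer-deleted against control cells (9.76%, where 30.5% were). Rpl4, Rpl7a and Rps21 were higher in both deletions, with Rps21 1.94-fold (adjusted p = 0.000414) and 1.96-fold (adjusted p = 0.000447) above the remaining controls. Rpl14, Rps15a, Rps18, Rps19bp1 and Rps27l were lower in both, with Rpl14 1.45-fold and 1.39-fold below them, and Rpl21, Rpl22, Rpl24, Rpl28 and Rps6 were lower in Drosha-deleted cells. Under each of the other 17 alternative settings the number of these genes called was 0 in all 3 comparisons. With control replicate 1 as the lone control, an alternative chosen after seeing the data, Rps21 turned to -0.10 and Rpl14 to 0.01 in Drosha-deleted cells, Rpl4 was at 0.07, Rpl28 at -0.09, Rps6 at -0.13 and Rpl22 at -0.22. In Dicer-deleted cells Rps21 was then at -0.09, Rpl14 at 0.07, Rpl7a at 0.03 and Rps18 at -0.14.

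The stalk proteins Rplp0, Rplp1 and Rplp2 form the arm of the large subunit that draws in the elongation factors. Rplp0 was at 18.73, 18.73 and 18.67 in the controls, at 18.73, 18.69 and 18.67 in Drosha-deleted cells and at 18.73, 18.77 and 18.69 in Dicer-deleted cells, next to the top of the scale. Rplp1 was at 17.93, 18.08 and 17.98 in the controls, at 17.85, 17.79 and 17.75 in Drosha-deleted cells and at 17.90, 17.86 and 17.85 in Dicer-deleted cells. Rplp1 was thus lower in both deletions without overlap, by -0.20 ± 0.10 (SE) and -0.12 ± 0.10 (SE), and the smallest adjusted p of a stalk gene was 0.233.

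Of the genes mutated in Diamond-Blackfan anaemia, 9 are described here, namely Rps7, Rps10, Rps19, Rps24, Rps26, Rpl5, Rpl11, Rpl26 and Rpl35a. In Drosha-deleted against control cells 8 of the 9 differences were negative, from -0.20 for Rpl11 to 0.15 for Rps24. For these chosen probes no interval reached beyond 0.450 log2 units. In Dicer-deleted against control cells 4 were negative and 5 positive, from -0.18 for Rpl11 to 0.11 for Rps24. Other probes went further, and the 3 measured Rps24 probes ranged from 0.15 to 0.70 in Drosha-deleted against control cells. In Dicer-deleted against control cells they ranged from 0.11 to 0.35. Rpl11, which binds Mdm2 together with Rpl5, was at 18.22, 18.37 and 18.32 in the controls, at 18.10, 18.16 and 18.06 in Drosha-deleted cells and at 18.16, 18.08 and 18.14 in Dicer-deleted cells. For the chosen probe, Rpl11 lay below the controls in both deletions without overlap. The 3 measured Rpl11 probes differed in sign, from -0.20 to 0.08 in Drosha-deleted and from -0.19 to 0.03 in Dicer-deleted against control cells. The smallest limma adjusted p of the 9 genes was 0.242 in Drosha-deleted and 0.317 in Dicer-deleted against control cells.

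Among the paralogs, 5 of the 8 were measured. Rpl22l1, the partner of Rpl22, was at 16.23, 16.12 and 16.28 in the controls, at 16.13, 15.89 and 16.20 in Drosha-deleted cells and at 16.26, 16.09 and 16.24 in Dicer-deleted cells, and all 3 groups overlapped. Rpl7l1 was at -0.28 ± 0.16 (SE) in Drosha-deleted against control cells, and Rpl36al at -0.09 ± 0.15 (SE). Rps27l, a p53 target and the partner of Rps27, was at 16.29, 16.55 and 16.75 in the controls against 16.20, 16.22 and 16.27 in Drosha-deleted cells and 16.20, 16.25 and 16.36 in Dicer-deleted cells, with control replicate 1 again next to the deletions.

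Rps4y2 had the largest difference of the list. RefSeq names it Rps4l, classes it as a transcribed pseudogene and places it on chromosome 6. It was at 6.86, 7.79 and 7.53 in the controls, at 7.96, 9.85 and 8.38 in Drosha-deleted cells and at 6.90, 8.25 and 7.79 in Dicer-deleted cells. The Drosha-deleted arrays lay above all controls and overlapped with the Dicer-deleted ones. The difference from the controls was 1.33 ± 0.51 (SE, 95% interval 0.18 to 2.49, limma adjusted p = 0.147), and 0.77 without Drosha-deleted replicate 2. Its partner Rps4x, the protein-coding gene on the X chromosome, was at 16.85 to 16.97 on all 9 arrays. The array annotation placed the Rps4x probe on chromosome 3, so that probe may also read another copy of the gene.

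Rpl39l, the testis-enriched copy of Rpl39, was well above background on 1 array. It was at 11.16 in Drosha-deleted replicate 2 and at 4.85 to 5.69 on the other 8 arrays, and the scanner values gave the same picture, with 1.98 log2 units over the array's 75th percentile there and at most -5.26 elsewhere. The same array held the highest value of Rps4y2. Rpl3l, the muscle copy of Rpl3, stayed between 5.29 and 5.97, and Rpl10l, the testis copy of Rpl10, between 5.26 and 6.27.

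Genes with several probes gave a check on the chosen one. Of the 85 genes 53 had more than 1 probe, with up to 7, and 51 had at least 2 probes that passed the filter, 137 probes in all. The probes of a gene all had the same sign for 29 of the 51 in Drosha-deleted against control cells, 23 in Dicer-deleted against control cells and 35 between the deletions, and their differences spanned 0.18, 0.18 and 0.12 log2 units in the median. The span exceeded 0.5 for 7, 2 and 0 genes. Probes agreed in sign for Rps6 in Drosha-deleted cells, at -0.24, -0.21 and -0.13 against the controls. In both deletions they agreed for Rps15a, from -0.63 to -0.32 in Drosha-deleted and from -0.66 to -0.21 in Dicer-deleted against control cells. They also agreed for Rps24, from 0.15 to 0.70 and from 0.11 to 0.35. For the chosen probes of Rps15a and Rps24, control replicate 1 lay inside the range of the deletion arrays. In Dicer-deleted cells the Rps6 probes did not agree, at -0.13, -0.09 and 0.15. Signs also differed there for Rps18, at -0.31 for the chosen probe and 0.19 for the other, and for Rpl14, at -0.29 and 0.04. For 80 genes the array annotation placed the chosen probe on the chromosome of the gene, for Rps4x, Rps29, Rpl31 and Rps27 on another, and for Rps3 nowhere. Only the chromosome was compared. The Rps2 probe, counted among the 80, was placed at 42864841 on chromosome 17 (build mm9). The start window of Rps2 opens at 24720048 on that chromosome (GRCm38.p6), far from the probe. Processed copies of these genes are common in the genome, so a probe may also read such a copy.

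**Figure D4:**
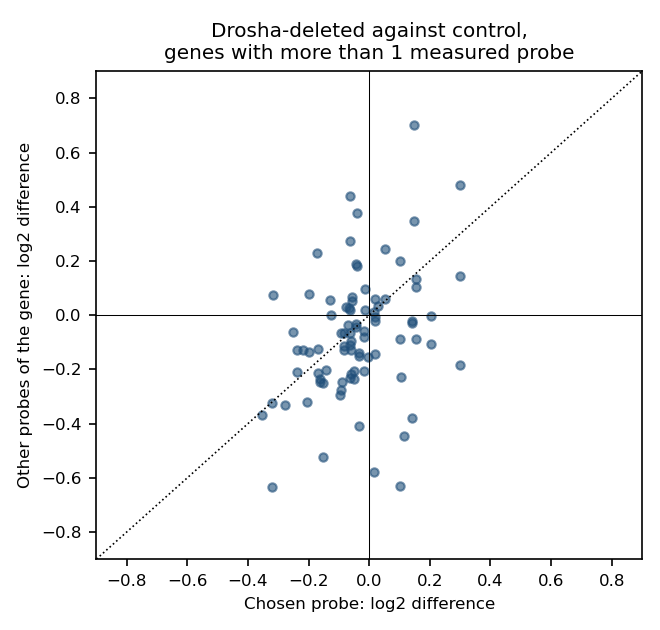
Each of the 86 points is another measured probe of a gene that has more than 1, plotted by its log2 difference in Drosha-deleted against control cells (vertical) against that of the gene's chosen probe (horizontal); the dotted line marks equal values. The points scatter widely around the line, up to a difference of 0.703, and lie on both sides of 0.

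The scanner values give the same genes before the authors' normalisation, with only a scaling of each array. The authors' columns share nearly the same set of values in a different order, which leaves little room for the top of the scale to move as a block. In the scanner values, scaled to each array's 75th percentile, the ribosomal protein genes lay 0.28 above all genes in control replicate 3, 0.09 below in control replicate 1 and 0.41 below in control replicate 2, relative to each gene's own median over the arrays. The 6 deletion arrays lay between -0.01 and 0.11. In the authors' values the same quantity was between -0.04 and 0.04 on all 9 arrays, with the 3 Drosha-deleted arrays at -0.02, -0.04 and -0.03 and the 3 Dicer-deleted arrays at 0.02, 0.00 and 0.

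Without the array of control 2, the scanner values had a median difference of -0.14 in Drosha-deleted against control cells, -0.06 in Dicer-deleted against control cells and -0.08 between the deletions, where the medians over all genes were -0.02, 0.01 and -0.01. A gene's values then spanned 0.459 log2 units in the median over 8 arrays, against 0.226 in the authors' values of the same arrays. The 2 control arrays that remained stood at -0.09 and 0.28 in the array medians above, farther apart than either of these differences. Rps21 was at 7.36 and 6.66 in control replicates 1 and 3 and at 7.33 to 7.55 in the 6 deletion arrays, so its low value in control replicate 3 was present before the authors' normalisation. In the scan of control replicate 2 it was at 5.996, on an array where the median of the 82 genes, each less its own median over the arrays, was -1.35, so that scan does not show Rps21 as low beside the other ribosomal protein genes.

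**Figure D5:**
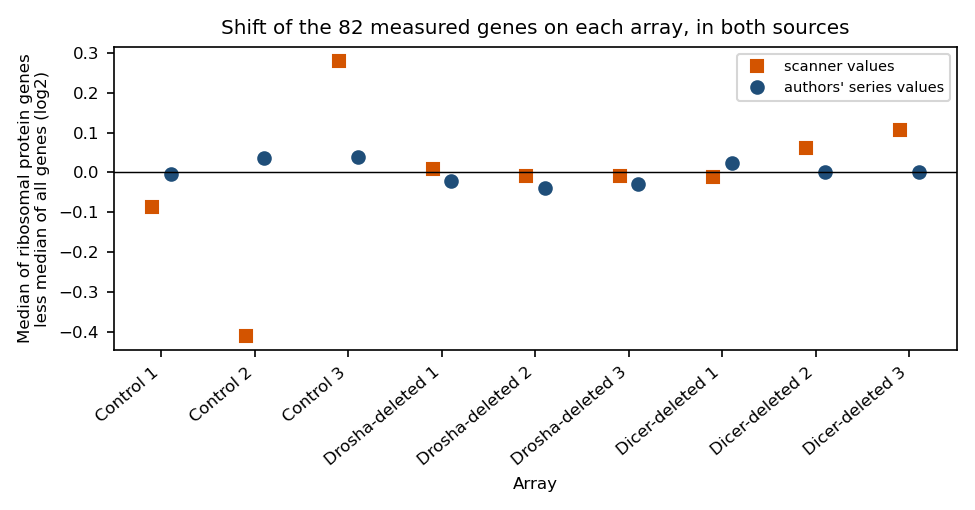
For each array, squares give the scanner values and circles the authors' values of the median over the 82 genes less the median over all genes, after subtracting each gene's own median over the 9 arrays (log2 units). The squares of control replicates 2 and 3 lie at -0.41 and 0.28, while all circles lie within 0.04 of 0.

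The wider translation machinery was read from lists of genes, none of which had a member past the threshold in any of the 3 comparisons by limma. Fau, which encodes a further ribosomal protein as a fusion with a relative of ubiquitin, was at -0.19 (limma adjusted p = 0.244) in Drosha-deleted against control cells. Fau was at 18.27, 18.33 and 18.30 in the controls against 18.10, 18.10 and 18.11 in Drosha-deleted cells, without overlap. Gnb2l1 (Rack1), a scaffold on the small subunit, was at 15.13 in control replicate 1 and 16.49 in Drosha-deleted replicate 3 and at 18.20 to 18.37 on the other 7 arrays, and the spots on those 2 arrays were the ones marked as outliers by the scanner software. The 22 translation factors and other TOP mRNAs had medians of -0.08, -0.03 and -0.10 in the 3 comparisons, with 18 of 22 negative between the deletions, and the nucleolar chaperone Npm1 had -0.30 there.

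Of 66 ribosome biogenesis genes, 39 had negative differences in Drosha-deleted against control cells and 22 in Dicer-deleted against control cells. Their medians were -0.06 and 0.10, and -0.10 between the deletions, with 51 of 66 negative. In Dicer-deleted against control cells 10 had an unadjusted p under 0.05 with a positive difference and 1 with a negative one, 16.7% in all, which is below the 21.9% of all genes. Those with the smallest p were the RNA helicase Ddx21 at 0.55 ± 0.12 (SE, limma adjusted p = 0.132), the pseudouridine synthase Dkc1 at 0.59 ± 0.16 (SE, limma adjusted p = 0.159), the pre-rRNA processing factor Rrp9 at 0.43 and the polymerase I factor Rrn3 at 0.39. Rrp9 and Rrn3 had like differences in Drosha-deleted against control cells, at 0.44 (limma adjusted p = 0.0918) and 0.40 (limma adjusted p = 0.108). Of 23 regulators of TOP mRNAs and of ribosome supply, 13 had negative differences in Drosha-deleted against control cells. Myc, which drives ribosomal gene transcription, was at -0.86 ± 0.29 (SE, limma adjusted p = 0.122) and Larp1, which binds the TOP tract, at -0.43 ± 0.12 (SE, limma adjusted p = 0.109), while Rheb, which activates mTOR, was at 0.51 ± 0.20 (SE, limma adjusted p = 0.148). The 75 measured mitochondrial ribosomal protein genes, which serve a separate ribosome, had medians of -0.09, -0.03 and -0.05, close to those of the cytosolic genes, and the difference between both sets was not tested.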

How the data were processed

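RNA of 9 cultures was read on Agilent one-colour arrays (design 028005). Per the file headers, the deposited scanner files hold Cy3 intensity from Agilent Feature Extraction 10.7.3.1. The values tested were the authors' deposited log2 series values, whose columns share nearly the same quantiles; the submitters' processing notes name limma, and what else was done is not given in the sources used here. Spots of a probe were averaged, control spots left out, and a gene was represented by its probe with the highest mean over the 9 columns. Testing required that probe to be well above background on all 3 arrays of any group, and 23009 genes or regions met this.

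Tests used limma 3.58.1 (R 4.3.3, with data.table in version 1.17.8), with a mean per group over all 9 arrays, two-sided moderated tests, Benjamini-Hochberg adjustment over all genes tested and a threshold of 0.05. The procedure was tested on simulated data with each gene's own spread, in which 200 of the 23009 genes were changed. At the threshold it recovered 0% of changes of 0.5 log2 units in each comparison. It recovered 42% to 56.5% of changes of 1 log2 unit and 89.5% to 93.5% of changes of 2. The changed genes were drawn from all genes tested, not from the ribosomal protein genes alone. Symbols came from a RefSeq table of GRCm38.p6, in which 83 names matched by symbol and 2 by synonym. Alternatives were the scanner values (log2 of the processed signal less each array's 75th percentile, with and without control replicate 2, or normexp with offset 50 and quantile normalisation), other filters, the mean over a gene's probes, the replicate number or slide as a block, and each array left out. Leaving out control replicates 2 and 3 together was added after the data were seen. The members, the lists and the rule for naming genes (those past the threshold or with the smallest p, up to 20 per comparison, then the paralogs with partners, anaemia genes and stalk genes) were chosen with earlier results of these data known. The number of arrays limits the precision. Single values of some listed genes are not reported here.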

Additional observations from a re-analysis of the deposited data

How the results depend on the processing

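Of 648 values of named genes under 18 alternative settings, 630 stayed on the same side of the threshold and 18 passed it, each of them without control replicate 1; 0 called values changed sign, and 22 uncalled ones did. The number of ribosomal protein genes called was 0 under every setting except without control replicate 1. With 1 array left out in turn it ranged from 0 to 13 in Drosha-deleted against control cells and from 0 to 8 in Dicer-deleted against control cells. The number of all genes called ranged from 4 to 7739 and from 0 to 7017 there, and from 4 to 16 between the deletions, against 39, 4 and 13 with all arrays. With scanner values of all 9 arrays the counts in the 3 comparisons were 13, 3 and 4, without the array of control 2 they were 10, 4 and 5, and with normexp and quantile normalisation 1, 0 and 2. With no filter on dim probes they were 25, 2 and 10, and with probes well above background on all arrays 31, 2 and 9. With the slide as a block they were 13, 3 and 7, which is the same fit as without control replicate 3, the only array on its slide. With control replicate 1 as the lone control, which is then assumed to vary like the other groups, they were 38, 21 and 11. In scanner values of all 9 arrays the median difference of the ribosomal protein genes was 0.36 in Drosha-deleted and 0.43 in Dicer-deleted against control cells, where the median of all genes was itself 0.28 and 0.29. Without the array of control 2 it was -0.14 and -0.065, and with normexp and quantile normalisation -0.0048 and 0.052, where all genes were at 0.17 in both. The cause of these shifts was not tested. Same-numbered samples' deviations correlated from -0.28 to 0.24 and others from -0.30 to 0.28. Whether the replicate numbers pair the samples cannot be settled this way, since the deviations within a group of 3 depend on each other. With the replicate block the counts of all genes were 4, 0 and 5, and 0 ribosomal protein genes were called. The 3 arrays per group and the spread of the controls limit what could be called.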
